A study of Mus musculus with 12 samples.

Results

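The 39 protein-coding Hox genes of the mouse were followed in 12 lung libraries, as the members of the 4 Hox clusters whose GENCODE symbols join Hox, a cluster letter (a, b, c or d) and a paralogue number. They are 39 of the 78298 genes in the count table: 11 in cluster a on chromosome 6, 10 in cluster b on chromosome 11 (96085106 to 96259082, GRCm39 build), 9 in cluster c on chromosome 15 (102829538 to 102945278) and 9 in cluster d on chromosome 2 (74498654 to 74595486). RNA was sequenced from dissected macroscopic LLC tumours and from normal adjacent lung of mice given HDM (house dust mite) or VEH, giving 4 groups of 3 libraries (each tissue under each treatment), all with the same batch label. The labels do not spell out LLC or VEH. Strain, genotype, age, dose and exposure times are not given in the sources used here, nor is whether the replicates of a group came from separate mice, so p-values measure the spread between these libraries.

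Hox proteins are transcription factors that bind DNA through a homeodomain and give cells their position along the head-to-tail axis. Genes of a cluster lie in the order of their paralogue number, low numbers being used toward the head (anterior) and high numbers toward the tail and limbs (posterior). Lung mesenchyme is known for genes of the anterior and central paralogues of clusters a and b, among which Hoxa5 is needed for normal lung and airway development. Paralogues of equal number in different clusters descend from 1 ancestral gene.

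The homeobox of Hoxa5, the highest Hox gene of the normal libraries, is shown as an example of the sequence the members share, read from a GENCODE transcript. Capitals mark the bases that code the conserved stretch of the third, DNA-contacting helix (bases 142 to 159 of 180).
Hoxa5: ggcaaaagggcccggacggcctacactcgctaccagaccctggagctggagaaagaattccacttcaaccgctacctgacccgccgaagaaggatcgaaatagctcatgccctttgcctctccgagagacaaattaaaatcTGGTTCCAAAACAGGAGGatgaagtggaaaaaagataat
Hoxa5 and Hoxb5 were identical at 83.9% of the bases of the homeobox and Hoxa9 and Hoxd9 at 82.8%, whereas Hoxa5 and Hoxd9 were identical at 62.8%. Over all 42 pairs of equal number the identity ran from 67.2% to 93.9% (median 80.6%), and over the 699 other pairs from 46.1% to 88.9% (median 60.6%). The longest stretch of identical bases between transcripts of different clusters was 52 bases, shorter than the 150 bases read from each end. Within cluster d, transcripts of Hoxd3 and Hoxd4 share a run of 388 bases, and in cluster c those of Hoxc5 and Hoxc10 share 168 bases, so the counts of both pairs are uncertain.

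Total counts per library ran from 20608682 to 32765364, of which Hox genes took 1676 to 6674. Levels between libraries are given as CPM (counts scaled to library size with TMM factors), and levels between genes as TPM (counts scaled to gene length and to the library's sum). A gene with 3 counts or fewer in a library is at the floor, which corresponded to 0.091 to 0.138 CPM. Library names carry a prefix that joins a normal to a tumour library, and for 2 of 6 prefixes the treatment labels conflict (normal VEH replicate 2 with tumour HDM replicate 2, normal HDM replicate 3 with tumour VEH replicate 3). Groups follow the treatment labels. Normal VEH replicate 2 also stood apart in its Hox levels, and results that rest on it are given with and without it. The tissue labels were checked with marker genes: the summed CPM of 11 lung epithelium markers was 59590 to 118400 in normal libraries and 40.4 to 26060 in tumours, and that of 8 proliferation markers was 118 to 261 and 723 to 1321. Fibroblast and matrix markers (9 genes) summed to 1078 to 3206 and 5715 to 14500 CPM, and endothelial markers (8 genes) to 1692 to 3523 and 101 to 594 CPM. The fibroblast and matrix genes went both ways. At an edgeR adjusted p under 0.05, 4 were higher and 2 lower in tumour under VEH, and 4 and 3 under HDM. Their median log2 change was -0.22 and -0.26, and 38.9% and 51.9% of all genes passed. In such bulk tissue, fewer cells of a type and less RNA per cell cannot be told apart.

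Of the 39 genes, 26 had enough counts to be tested, 6 were low and 7 were near zero. All 7 near-zero genes (Hoxb13, Hoxc10, Hoxc11, Hoxc12, Hoxc13, Hoxd1 and Hoxd13) had 0 counts in every library, which allows up to 3 counts each. The 6 low genes were Hoxb1, Hoxb9, Hoxc8, Hoxc9, Hoxd3 and Hoxd12. The largest count among them was 17, for Hoxc9 in tumour VEH replicate 3. Hoxc8 was counted in that library alone (6 counts), Hoxd3 and Hoxd12 in tumours alone (at most 8 and 4 counts), and Hoxb1, the hindbrain gene, in 2 normal libraries alone (2 and 6 counts). All 11 genes of cluster a were tested, against 7 of 10 in cluster b, 3 of 9 in cluster c and 5 of 9 in cluster d.

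**Figure D1:**
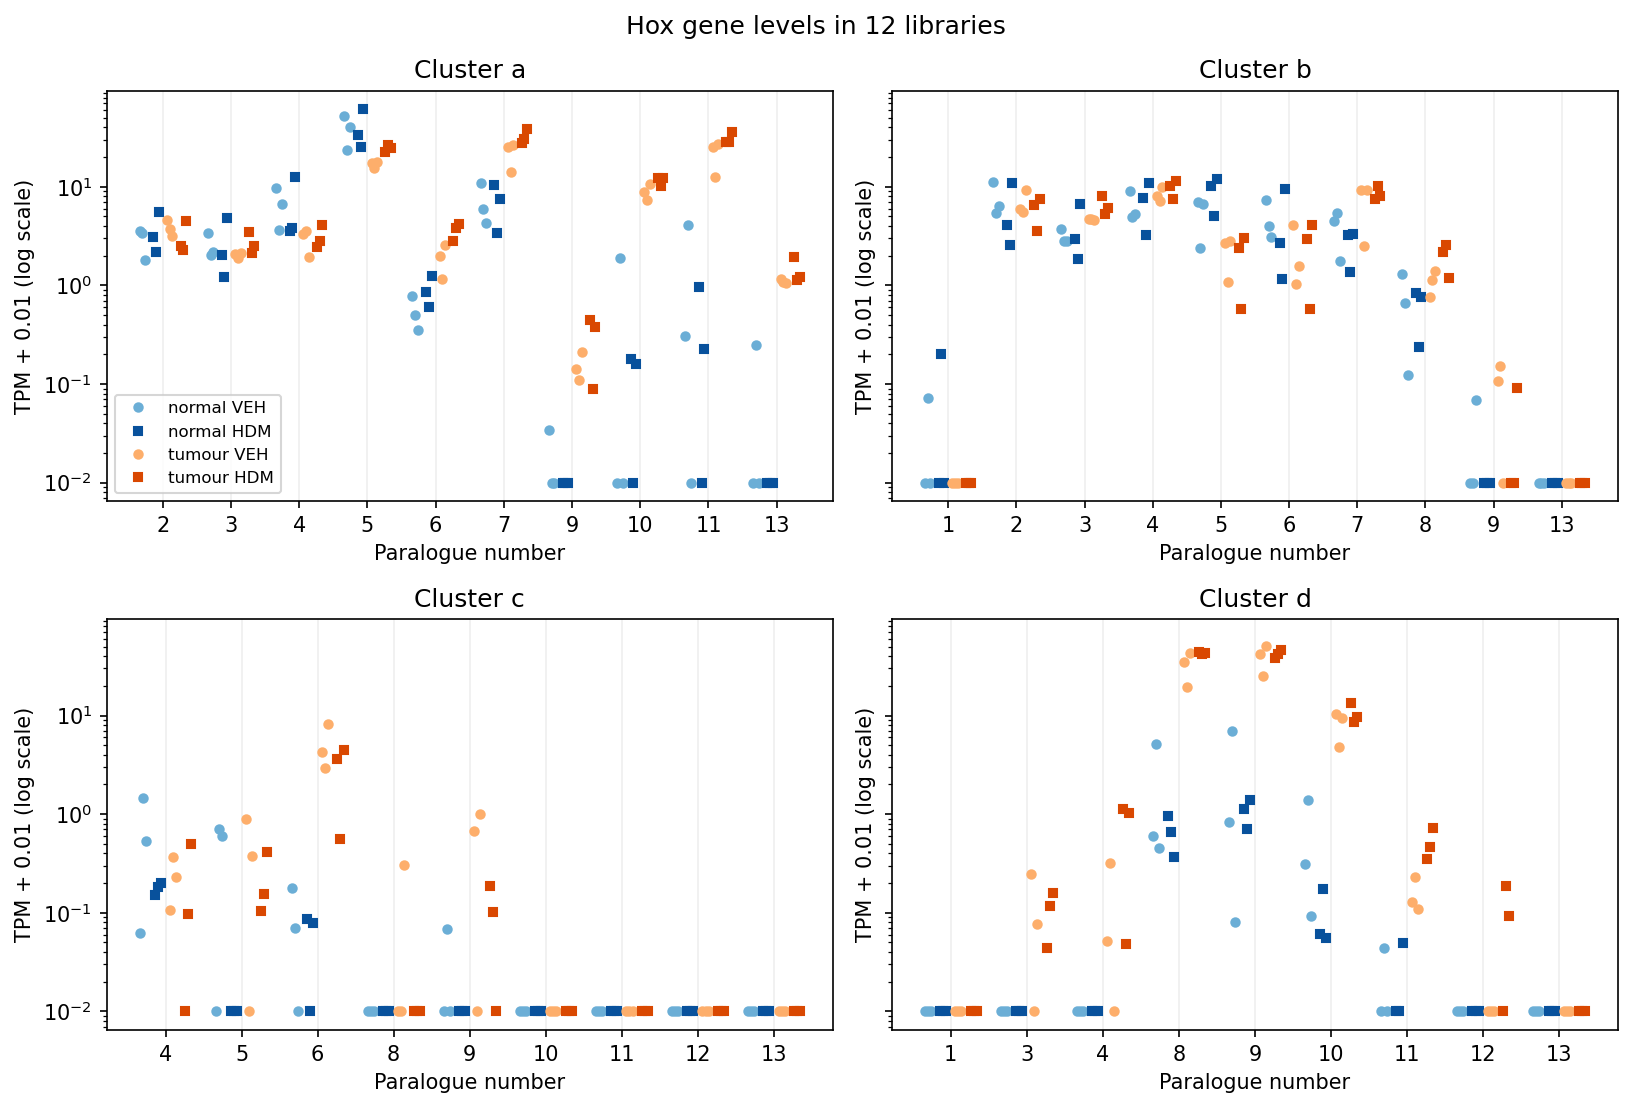
TPM of 38 Hox genes (vertical axis, TPM + 0.01 on a log scale) against paralogue number in the 4 clusters, with 1 point per library and colours for the 4 groups; points at 0.01 are libraries with 0 counts. Hoxa5 leads in normal lung (23.6 to 61.2 TPM), while Hoxd8, Hoxd9, Hoxd10, Hoxa10 and Hoxa11 separate tumour from normal libraries.

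In normal lung the Hox genes expressed were mainly the central ones. Hoxa5 was the highest Hox gene in all 6 normal libraries, at 23.6 to 61.2 TPM (mean 39.2 ± 15.0 SD, n = 6), and alone made up 26.2% to 47.7% of the summed Hox TPM. Next came Hoxb5 (7.19 ± 3.44 TPM), Hoxa7 (7.07 ± 3.12), Hoxb4 (6.86 ± 2.90), Hoxb2 (6.70 ± 3.51) and Hoxa4 (6.69 ± 3.79), whose order is not resolved because their means differ by less than their SDs. Paralogues 4 to 8 held 64.7% to 82.9% of normal Hox TPM and paralogues 1 to 3 held 14.9% to 19.6%.

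In the tumours the order was different. Hoxd9, a posterior gene known from limb and trunk, was the highest in 5 of 6 tumours (25.3 to 50.9 TPM over all 6) and its neighbour Hoxd8 in tumour HDM replicate 1 (43.9 TPM). The mean levels of Hoxd9 (40.6 ± 8.67 TPM, n = 6) and Hoxd8 (37.6 ± 9.56) differed by less than their SDs. So did those of the next genes, Hoxa7 (27.1 ± 7.80) and Hoxa11 (26.3 ± 7.67). Hoxa5 followed (20.8 ± 4.48). The summed Hox TPM was 54.5 to 151 in normal libraries and 138 to 279 in tumours, so these ranges overlapped.

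The share of Hox TPM from paralogues 9 to 13 separated the tissues most plainly. It was 37.4% to 40.6% in the 6 tumours, 0.252% to 2.58% in 5 normal libraries and 16.2% in normal VEH replicate 2. Cluster d behaved likewise, with 35.9% to 41.9% of Hox TPM in tumours, 0.703% to 2.78% in the same 5 normal libraries and 15.0% in normal VEH replicate 2. Cluster c held at most 4.06% in any library.

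**Figure D2:**
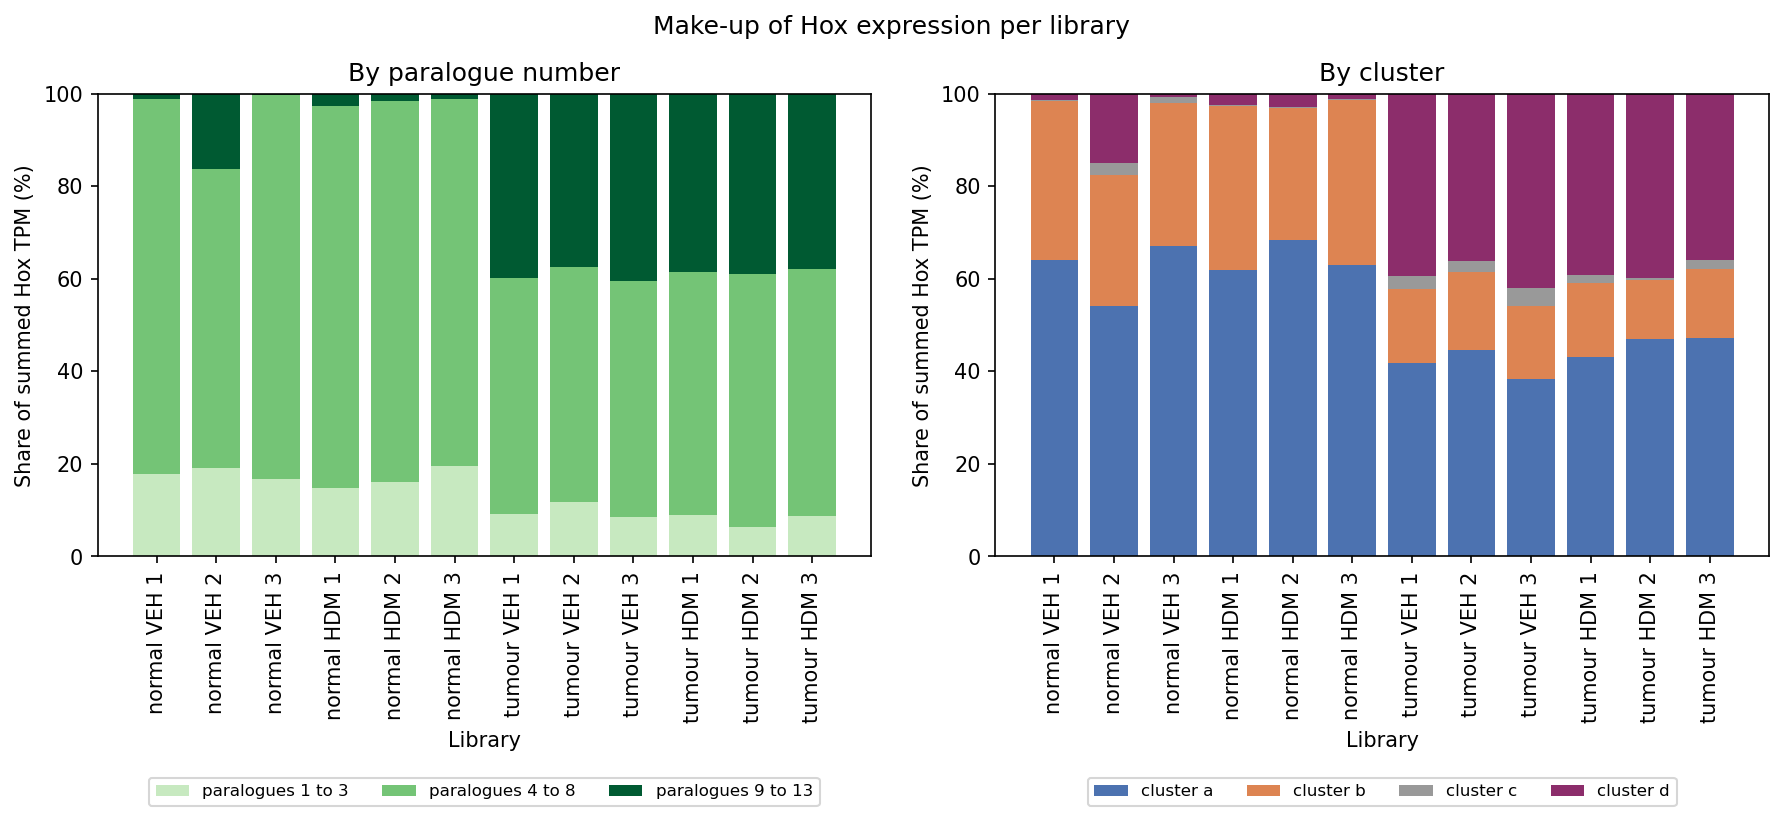
Share of the summed Hox TPM (vertical axis, percent) in each of the 12 libraries, split by paralogue number on the left and by cluster on the right. Paralogues 9 to 13 take 37.4% to 40.6% in tumours, and normal VEH replicate 2 (16.2%) stands between them and the other normal libraries.

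Tumours were compared with normal lung under VEH and under HDM, to ask which Hox genes differ between the LLC tumour and its surroundings with and without mite exposure. Under VEH, 5 Hox genes were higher (Hoxa13, Hoxc6, Hoxd8, Hoxd9 and Hoxd10) and 3 lower (Hoxa4, Hoxa5 and Hoxb5), which makes 8 of 26 tested (called at an adjusted p under 0.05 in edgeR, over 22190 genes). Of all genes tested, 38.9% were called (18.2% higher and 20.6% lower), so the share of Hox genes called was not above the background. Under HDM, 11 were higher (the same 5 with Hoxa7, Hoxa9, Hoxa10, Hoxa11, Hoxd4 and Hoxd11) and the same 3 were lower, 14 of 26 against 51.9% of all genes (23% higher and 28.9% lower). The median log2 change of the tested Hox genes was 0.15 under VEH, where that of all genes was -0.11, and 1.23 under HDM, where it was -0.08 (with the genes at 0 counts in normal lung set at their lower bound, 0.15 and 1.08). Libraries of the tissues did not overlap for 9 higher and 5 lower Hox genes under VEH (23.9% and 28.5% of all genes) and for 14 and 3 under HDM (29.6% and 33.5%). With library prefix as a block, 8 of the 14 HDM calls were kept and Hoxa4, Hoxa9, Hoxa10, Hoxa13, Hoxd4 and Hoxd11 were lost (edgeR adjusted p 0.12, 0.0609, 0.0721, 0.0617, 0.0966 and 0.113), where 38.9% of all genes were called. Under VEH that block kept 7 of 8 calls, losing Hoxa13 (edgeR adjusted p 0.0819). It added Hoxa11 as higher (5.78, adjusted p 0.047) and Hoxb2 as lower (-1.36, adjusted p 0.0431). That made 9 of 26 called, where 26.1% of all genes were called. Without a block, no Hox gene was called in opposite directions, and 12 were called in neither comparison.

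The calls differed in number along the clusters, without a test of that difference. Without a block, none of the 5 tested paralogues 1 to 3 was called under either treatment. Among 14 tested paralogues 4 to 8, 2 were higher and 3 lower under VEH, and 4 higher and 3 lower under HDM. Among 7 tested paralogues 9 to 13, 3 were higher under VEH and 7 under HDM, and none lower; the other 9 genes with these numbers were low or near zero. Most of these genes passed the filter on low counts through their tumour libraries, so the counts are a description and no support for a rule along the clusters.

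**Figure D3:**
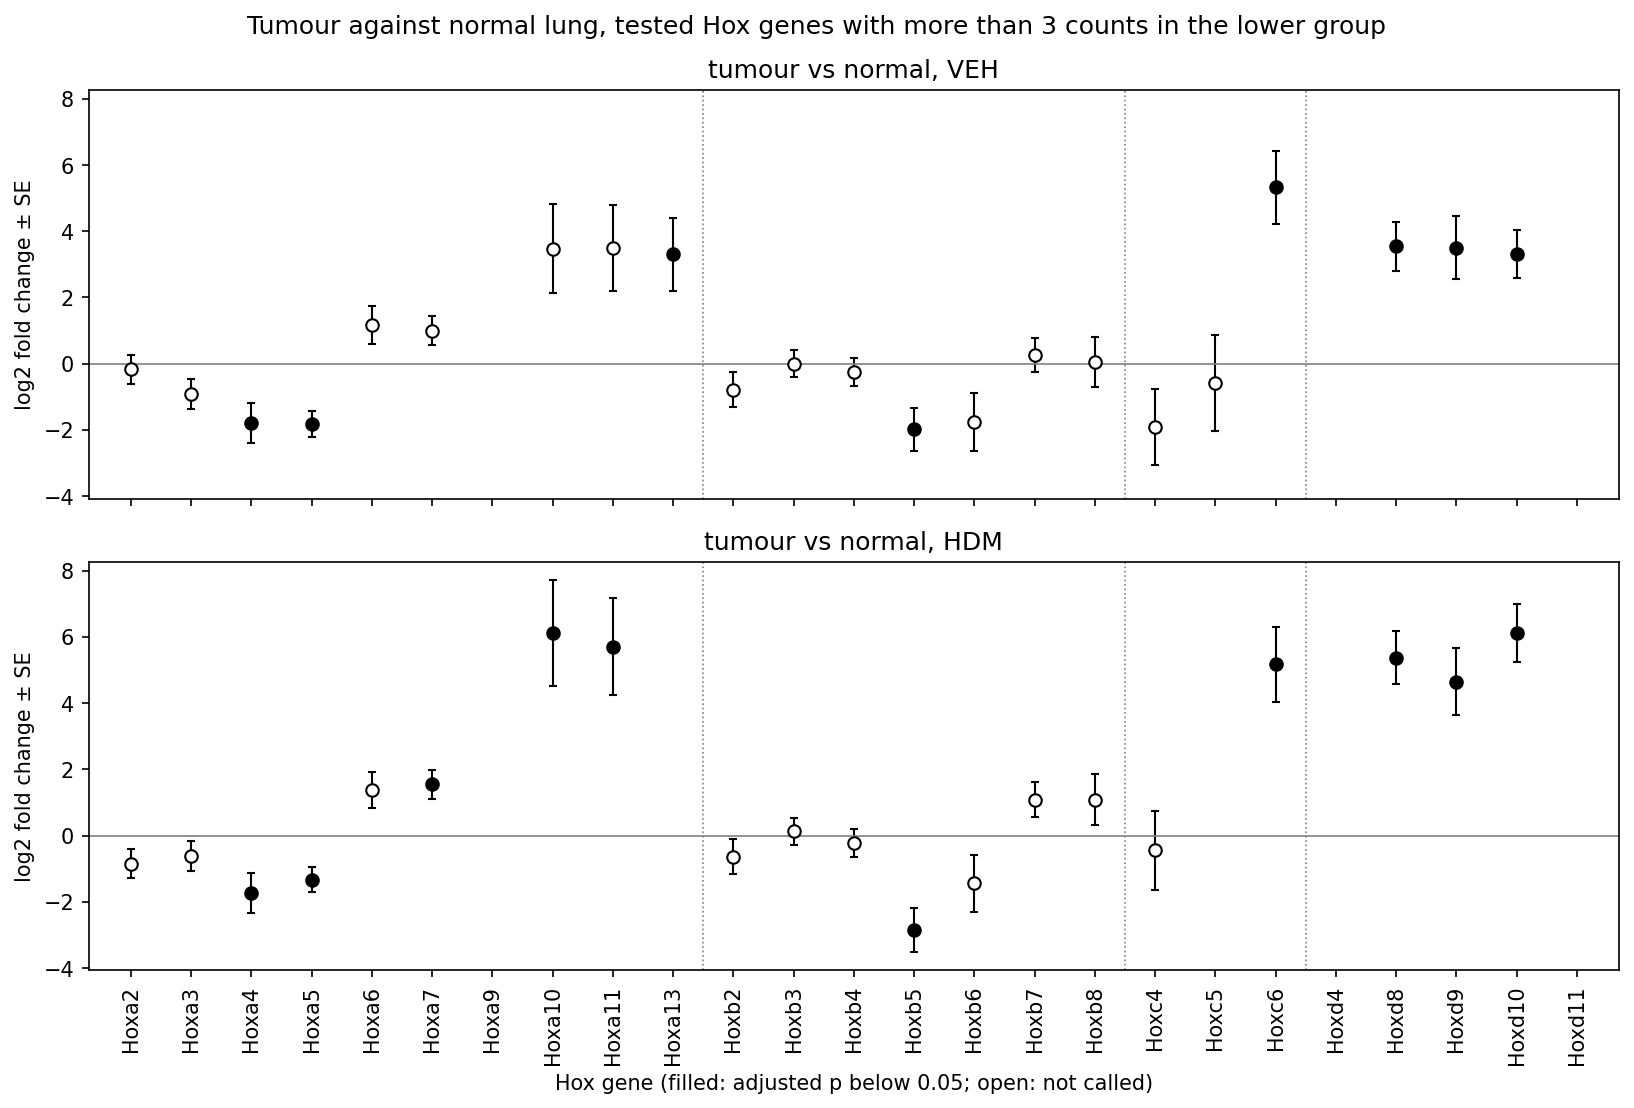
Log2 fold change of tumour over normal (vertical axis, ± SE) for tested Hox genes with more than 3 counts in the lower group, ordered by cluster and paralogue number, under VEH above and HDM below; filled points were called. Paralogues 4 and 5 of cluster a and Hoxb5 lie below 0, and the called genes of cluster d lie between 3.32 and 6.11.

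Hoxa5 was the most abundant of the genes that fell. It measured 59.0, 19.5 and 42.2 CPM in normal VEH and 11.3, 11.7 and 10.98 CPM in tumour VEH replicates 1 to 3, and 27.7, 23.9 and 51.5 CPM in normal HDM and 12.0, 15.3 and 13.7 CPM in tumour HDM. Normal and tumour libraries did not overlap, and the spread was wide among normal libraries and narrow among tumours. It fell by 1.83 ± 0.38 (SE, log2) under VEH (edgeR adjusted p 0.00457) and by 1.33 ± 0.38 under HDM (adjusted p 0.0128). The HDM call was lost without normal HDM replicate 3, tumour HDM replicate 1 or tumour HDM replicate 3 (adjusted p 0.0507 to 0.0832). Beside it, the summed CPM of 10 lung mesenchyme markers was 545 to 1496 in normal libraries and 235 to 315 in tumours. The normal libraries highest in Hoxa5 (VEH replicate 1 and HDM replicate 3) had the highest sums (1336 and 1496, the next being 1175). Their sums of 6 smooth muscle markers were also the highest (1857 and 1771 CPM), against 107 to 415 in the other normal libraries. In tumours smooth muscle summed to 20.2 to 110 CPM. The part of mesenchyme or smooth muscle content in the fall of Hoxa5 was not tested.

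Hoxb5, the cluster b paralogue of Hoxa5 and a gene of lung branching, measured 11.8, 2.96 and 10.3 CPM in normal VEH, 2.55, 1.19 and 2.58 in tumour VEH, 12.6, 7.02 and 14.9 in normal HDM, and 1.89, 0.478 and 2.43 in tumour HDM. The lowest normal library (VEH replicate 2) lay just above the highest tumour. It fell by 1.99 ± 0.65 under VEH (edgeR adjusted p 0.0332) and by 2.84 ± 0.67 under HDM (adjusted p 0.00523), or by 2.09 without the 4 libraries of conflicting prefix (adjusted p 0.0211). The VEH call was lost in 6 of 12 fits that left out 1 library (normal VEH replicate 1 or 3, any tumour VEH replicate, or tumour HDM replicate 1; adjusted p 0.0521 to 0.103).

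Hoxa4, its neighbour in cluster a, ran from 2.54 to 9.36 CPM in the normal libraries (median 4.52) and from 1.02 to 2.31 CPM in the tumours (median 1.58), without overlap. It fell by 1.80 ± 0.61 under VEH (edgeR adjusted p 0.037) and by 1.74 ± 0.61 under HDM (adjusted p 0.0325). The VEH call was lost in 6 of 12 such fits (edgeR adjusted p 0.0546 to 0.14). These left out normal VEH replicate 1 or 3, tumour VEH replicate 1 or 3, or tumour HDM replicate 1 or 2. The HDM call was lost in 5 of 12 (adjusted p 0.0508 to 0.225). These left out normal HDM replicate 3, tumour VEH replicate 1 or any tumour HDM replicate. Without normal HDM replicate 3 the HDM fall was 0.83 on the log2 scale. Without the 4 libraries of conflicting prefix the HDM fall was 0.80 and was not called (adjusted p 0.207).

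Hoxd8 and Hoxd9, adjacent genes of cluster d, showed the highest tumour levels. Hoxd8 measured 0.986, 6.20 and 0.674 CPM in normal VEH, 1.15, 0.906 and 0.442 in normal HDM, 32.9, 21.3 and 38.7 in tumour VEH, and 34.3, 35.0 and 34.5 in tumour HDM. Every tumour stood above every normal library, the nearest being normal VEH replicate 2. It rose by 3.54 ± 0.73 under VEH (edgeR adjusted p 0.00461) and by 5.38 ± 0.81 under HDM (adjusted p 0.000549). The VEH rise without normal VEH replicate 2 was 5.21 (adjusted p 7.76e-05). Hoxd9 measured 1.07, 6.58 and 0.0842 CPM in normal VEH, 1.07, 0.755 and 1.33 in normal HDM, 30.8, 21.8 and 35.8 in tumour VEH, and 23.2, 27.3 and 28.5 in tumour HDM. It rose by 3.50 ± 0.95 under VEH (edgeR adjusted p 0.0163) and by 4.64 ± 1.01 under HDM (adjusted p 0.00386). The VEH call was lost without normal VEH replicate 1 (adjusted p 0.0575). That call was also lost with no filter on low counts (adjusted p 0.0534) and with only the groups compared (adjusted p 0.0626). The VEH rise of Hoxd9 without normal VEH replicate 2 was 5.66 (adjusted p 0.000519). For both genes normal VEH replicate 2 was the highest normal library and tumour VEH replicate 2 the lowest tumour. That tumour had the highest lung epithelium sum of the 6 (26060 CPM); the part of adjacent lung in its levels was not tested.

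Hoxd10, the next gene toward the posterior end, measured 0.329, 1.10 and 0.0842 CPM in normal VEH, 0.0410, 0.151 and 0.0368 in normal HDM, 6.42, 3.50 and 5.68 in tumour VEH, and 6.94, 4.78 and 5.13 in tumour HDM. The groups were apart under both treatments. It rose by 3.32 ± 0.73 under VEH (edgeR adjusted p 0.00574) and by 6.11 ± 0.88 under HDM (adjusted p 0.000404), where the normal libraries held 6 counts in all. The VEH rise was 4.62 without normal VEH replicate 2 (adjusted p 0.000959), and the HDM rise was 7.01 without normal HDM replicate 2 (adjusted p 0.00157). Hoxd11 and Hoxd4, at the ends of the expressed stretch, were scarce: Hoxd11 had 2 counts over the 3 normal libraries of either treatment and 3 to 29 counts per tumour, and Hoxd4 had 0 counts in all normal libraries and 0 to 29 in tumours. Under HDM, the mean of Hoxd4 was at least 5.36-fold higher in tumour (against 3 counts per library). Tumour HDM replicates 1 to 3 held 23, 1 and 29 counts, so replicate 2 was at the floor. The call was lost without any 1 of the 3 normal HDM libraries or tumour HDM replicate 1 or 3 (edgeR adjusted p 0.0737 to 0.0805). Only 48% of the exon bases of Hoxd4 are free of other genes on its strand, so its counts are uncertain.

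Hoxc6, a trunk gene, was the only gene of cluster c called in these fits. It had 6, 2 and 0 counts in normal VEH, 2, 0 and 2 in normal HDM, 82, 76 and 140 in tumour VEH, and 61, 12 and 103 in tumour HDM. Tumour HDM replicate 2 (0.410 CPM) was the lowest tumour and still above the highest normal library (0.246 CPM). It rose by 5.32 ± 1.09 under VEH (edgeR adjusted p 0.00414) and by 5.17 ± 1.15 under HDM (adjusted p 0.00384). Without normal VEH replicate 1, the normal VEH library with most counts, the VEH rise was 6.75 (adjusted p 0.00697). In normal VEH replicate 2 Hoxc6 was at 2.01% of the tumour mean, where Hoxd8, Hoxd9 and Hoxd10 were at 18.9%, 23.6% and 20.4%. The Hoxc6 share rests on 2 counts, which is at the floor. It also depends on the mean of all tumours, since the tumour of the same prefix (HDM replicate 2) was the lowest in Hoxc6.

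In cluster a, the genes that fell were Hoxa4 and Hoxa5, and those that rose lay from Hoxa7 on. Hoxa7 measured 19.0, 7.61 and 6.90 CPM in normal VEH, 13.4, 4.91 and 9.57 in normal HDM, 25.1, 16.4 and 24.96 in tumour VEH, and 22.9, 26.9 and 32.03 in tumour HDM. Its groups overlapped under VEH, through normal replicate 1 and tumour replicate 2, but not under HDM. The difference was 0.99 ± 0.44 under VEH (edgeR adjusted p 0.0917) and 1.55 ± 0.44 under HDM (adjusted p 0.0129). The HDM call was lost without the 4 libraries of conflicting prefix (1.67, adjusted p 0.0827). Without normal VEH replicate 1 Hoxa7 passed under VEH too (1.61, edgeR adjusted p 0.0163). Hoxa6, between Hoxa5 and Hoxa7, was scarce (0.168 to 1.06 CPM) and was not called. Its difference was 1.17 ± 0.56 under VEH (edgeR adjusted p 0.119) and 1.37 ± 0.55 under HDM (adjusted p 0.0572). Under HDM its tumours lay above its normal libraries. There it passed by library size (edgeR adjusted p 0.0387), with counts halved (0.0451) and in the DESeq2 Wald test (adjusted p 0.0345).

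Hoxa10 and Hoxa11, posterior genes known from the limb and the reproductive tract, were at or below 0.983 CPM in 5 of 6 normal libraries. Hoxa10 measured 0, 2.71 and 0 CPM in normal VEH, 0.246, 0 and 0.221 in normal HDM, 9.94, 9.74 and 11.4 in tumour VEH, and 11.3, 10.1 and 11.7 in tumour HDM. Hoxa11 measured 0.411, 4.09 and 0 CPM in normal VEH, 0.983, 0 and 0.221 in normal HDM, 19.8, 11.6 and 20.2 in tumour VEH, and 18.6, 19.9 and 24.1 in tumour HDM. All tumours stood above all normal libraries for both genes. Under HDM Hoxa10 rose by 6.11 ± 1.59 (edgeR adjusted p 0.00908) and Hoxa11 by 5.70 ± 1.47 (adjusted p 0.00859). Under VEH the differences were 3.48 ± 1.34 (adjusted p 0.0625) and 3.49 ± 1.29 (adjusted p 0.0539), which did not pass. Without normal VEH replicate 2 both passed, Hoxa10 against 2 libraries at 0 counts (adjusted p 0.000317) and Hoxa11 with a difference of 6.35 (adjusted p 0.0064). The HDM rise of Hoxa11 was 7.49 without normal HDM replicate 1 and 5.11 without normal HDM replicate 2 (adjusted p 0.0111 and 0.026). Hoxa11 passed under VEH without normal HDM replicate 1 or 2 as well (adjusted p up to 0.0499), and 43.6% of its exon bases lie opposite the noncoding gene Hoxa11os, so its counts are uncertain if strand was not used.

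Hoxa9 and Hoxa13 rose to low levels. Hoxa9 had 2 counts in 1 normal library, 0 in the other 5 and 4 to 20 counts in the tumours, far below its paralogue Hoxd9 (0.221 against 40.6 TPM in tumours). Under HDM it was at least 4.16-fold higher in tumour than 3 counts per library (edgeR adjusted p 0.00739). Under VEH it passed without normal VEH replicate 1 alone (adjusted p 0.0419). Hoxa13, the most posterior gene of the cluster, had 8 counts in normal VEH replicate 2, 0 in the other 5 normal libraries and 18 to 32 counts in the tumours. It was at least 8.61-fold higher under HDM (adjusted p 0.00437). Under VEH it rose by 3.30 ± 1.10 (adjusted p 0.0416), a call lost in 8 of 12 fits that left out 1 library (normal VEH replicate 1 or 3, or any tumour; adjusted p 0.0553 to 0.1). Its VEH adjusted p without normal VEH replicate 2 was 0.00345, against 2 libraries at 0 counts.

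**Figure D4:**
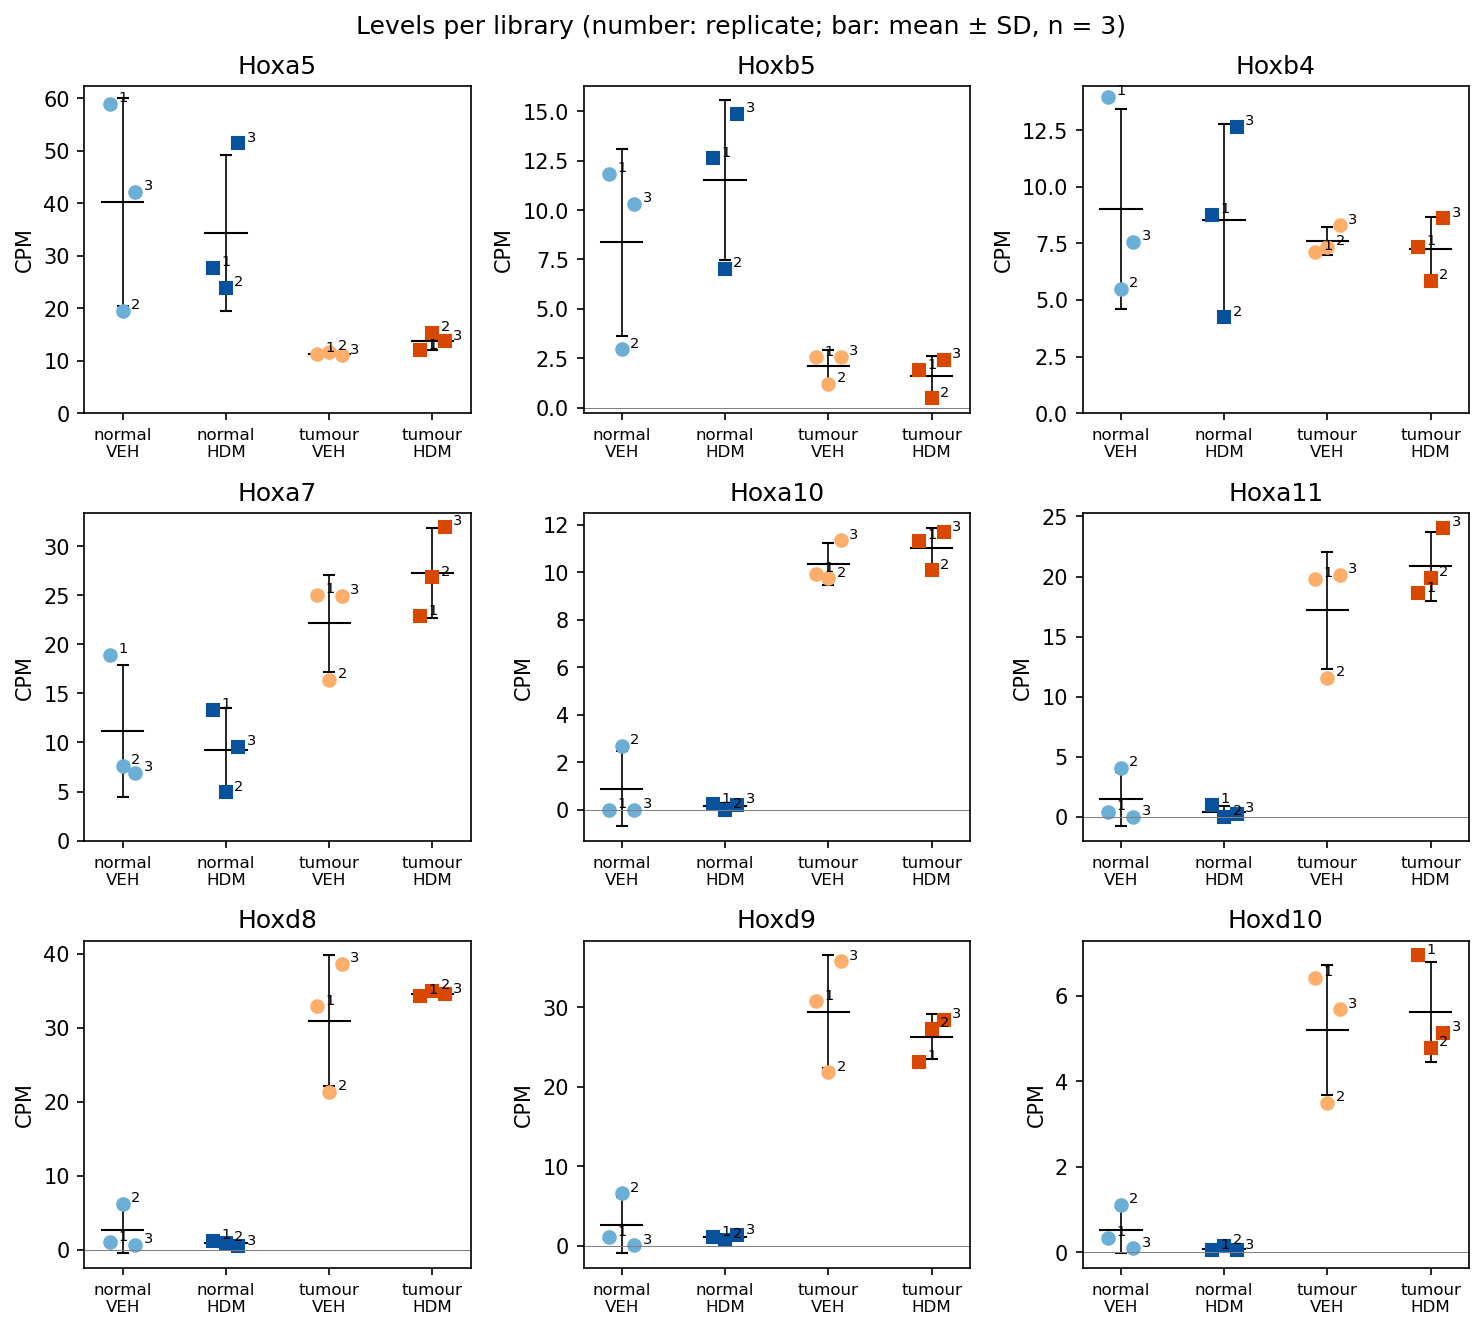
CPM per library (vertical axis) of 9 Hox genes in the 4 groups, with points numbered by replicate and bars for mean ± SD (n = 3). Hoxa5 and Hoxb5 are lower in tumours, Hoxb4 overlaps between tissues, and normal VEH replicate 2 lies highest among normal libraries for Hoxa10, Hoxa11, Hoxd8, Hoxd9 and Hoxd10.

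Of the 12 genes called in neither comparison, most belong to cluster b or to the anterior end of cluster a. Hoxb4, a gene of lung mesenchyme, measured 4.23 to 14.0 CPM in normal libraries and 5.84 to 8.61 CPM in tumours, so that the tumours lay inside the normal range; the difference was -0.25 ± 0.42 under VEH (edgeR adjusted p 0.656) and -0.23 ± 0.42 under HDM (adjusted p 0.662). Hoxb3 ran from 3.96 to 12.6 CPM in normal libraries and from 6.46 to 9.86 in tumours, and 51.5% of its exon bases lie opposite Hoxb3os. Hoxb2 ran from 4.49 to 23.3 CPM and from 3.76 to 10.52, and passed under VEH with library prefix as a block (-1.36, edgeR adjusted p 0.0431). For all 3 the normal range was wider than the tumour range. A test that is not passed does not show equal levels.

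Normal VEH replicate 2 held Hoxd8 and most of the tested posterior Hox transcripts at a level between the tissues. Relative to the mean of the 6 tumours, it held 25.3% of Hoxa10, 21.5% of Hoxa11, 26.1% of Hoxa13, 18.9% of Hoxd8, 23.6% of Hoxd9 and 20.4% of Hoxd10, where the other 5 normal libraries held at most 6.08% of any of them. Of the other tested paralogues 9 to 13, Hoxa9 had 0 counts in this library. Hoxd11 was at 14.8%, below another normal library at 17.3%, each on 2 counts. Normal VEH replicate 2 was the highest of the normal libraries in 8 of 26 tested Hox genes, a count not made over all genes. Its summed proliferation markers were at 261 CPM (118 to 139 in the other normal libraries, 723 to 1321 in tumours). Its fibroblast and matrix markers, which went both ways between the tissues, summed to 3206 CPM (1078 to 2670, and 5715 or more). Its lung mesenchyme (545 CPM), lung epithelium (59590 CPM) and endothelium (1692 CPM) sums were the lowest of the normal libraries. Its mesothelium sum (1092 CPM, against 273 to 748 in the other normal libraries and 21.5 to 198 in tumours) and leukocyte sum (749 CPM, against 147 to 747 and 328 to 623) were the highest of all 12 and did not lie between the tissues. The part of any of these in its Hox levels was not tested. Without it, 8 Hox genes were higher and 3 lower under VEH (11 of 27 tested in that fit, where 37.8% of all genes were called), the added genes being Hoxa10, Hoxa11 and Hoxd11.

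Tumour HDM replicate 3 had the lowest lung epithelium sum (40.4 CPM, with 2 of 11 markers, Epcam and Cdh1, at 0 counts) and the lowest endothelium sum (101 CPM) of the 12 libraries. Its lung mesenchyme sum (311 CPM) was within the range of the tumours (235 to 315), although 3 of the 10 markers, Tcf21 and Tbx5 among them, were at 0 counts. In this library 19 of the 26 tested Hox genes lay within the range of the other 5 tumours. The other 7 lay above it and none below, a count not made over all genes. Hoxa5 was at 13.7 CPM there (10.98 to 15.3 in the other tumours), Hoxb4 at 8.61 (5.84 to 8.31) and Hoxa7 at 32.03 (16.4 to 26.9).

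HDM was compared with VEH within each tissue, to ask whether mite exposure alters Hox expression. In this test no Hox gene was called in normal lung (adjusted p 0.866 to 1) or in tumours (0.469 to 0.983), where 0% and 0.0946% of all genes were called. At an unadjusted edgeR p under 0.05 there were 4 of 26 in normal lung (Hoxa13, Hoxc5, Hoxd8 and Hoxd10) and 0 in tumours. Of all 22190 genes tested, 1230 in normal lung and 3698 in tumours were under it. The DESeq2 Wald test called 0 Hox genes of 19 with an adjusted p in normal lung and 0 of 21 in tumours. It called 43 (0.206%) and 1311 (6.16%) of all genes. The 21 genes called in tumours were 0.00901% of all genes higher and 0.0856% lower. No Hox gene had HDM and VEH libraries that did not overlap in normal lung (4.47% of all genes higher and 5.85% lower did), and 2 (Hoxa5 and Hoxd11) were higher in this sense in tumours (11.3%, and 10.7% lower). Hoxd10 differed by -2.68 ± 0.85 in normal lung (edgeR adjusted p 0.866) and by 0.11 ± 0.65 in tumours (adjusted p 0.954). Without normal VEH replicate 2 the difference in normal lung was -1.38 (adjusted p 0.628). Of the 4, Hoxa13, Hoxd8 and Hoxd10 were highest in normal VEH replicate 2 among normal libraries. Hoxc5 had 30 and 24 counts in normal VEH replicates 2 and 3 and 0 in the other 4 normal libraries.

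The 6 genes higher under HDM and not under VEH are not shown to respond to HDM, since the interaction, which tests the difference between both tissue comparisons, called no Hox gene (edgeR adjusted p 0.512 to 1, 1 gene at an unadjusted p under 0.05, 0% of all genes called). The DESeq2 Wald test called 0 of 21 Hox genes and 222 of all genes (1.02%). Of all 22190 genes tested, 2084 had an unadjusted edgeR p under 0.05 for the interaction. The 1 Hox gene among them was Hoxd10 (2.79 ± 1.07, edgeR adjusted p 0.512), at 1.49 without normal VEH replicate 2 (adjusted p 0.618). The interaction was 2.64 ± 1.90 for Hoxa10 (adjusted p 0.642). Pooled by tissue as a description, 9 Hox genes had all 6 tumours above all 6 normal libraries (Hoxa9, Hoxa10, Hoxa11, Hoxa13, Hoxc6, Hoxd8, Hoxd9, Hoxd10 and Hoxd11) and 3 had them below (Hoxa4, Hoxa5 and Hoxb5), where 16.4% and 19.9% of all genes did so.

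Noncoding genes inside the clusters were measured too. Of 61 other annotated genes there, 12 were tested; 3 were higher and 4 lower in tumour under VEH, and 5 higher and 1 lower under HDM, beside 18.2% higher and 20.6% lower of all genes under VEH and 23% and 28.9% under HDM. Hoxa11os, antisense to Hoxa11, rose by 3.80 ± 1.16 under VEH (edgeR adjusted p 0.0266) and by 6.45 ± 1.37 under HDM (adjusted p 0.00335), the VEH call being lost without normal VEH replicate 1 or 3 or tumour VEH replicate 1 or 3 (adjusted p 0.0587 to 0.0643). Its adjusted p was 0.000433 without normal VEH replicate 2, which held 61 counts of it against 1 in each other normal VEH library. Hoxd3os1, which runs opposite Hoxd3, Hoxd4 and Hoxd8, rose by 3.67 ± 0.90 and by 4.73 ± 0.96 (adjusted p 0.0101 and 0.00246), and by 6.36 under VEH without normal VEH replicate 2 (adjusted p 0.000103). The labels name a stranded library method, but the strand setting of the counting is not given in the sources used here, so reads of each such pair cannot be told apart with certainty.

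Partners and regulators of Hox genes were taken as 5 lists, whose named genes are examples chosen after their values were seen. The background for all 5 is that of all genes, with 18.2% higher and 20.6% lower under VEH, 23% and 28.9% under HDM, and medians of -0.11 and -0.08; nothing particular to a list is read from its counts. Of the 9 TALE cofactors, homeodomain proteins that bind DNA with Hox proteins, 4 were lower under VEH and 5 under HDM and none was higher (median log2 change -0.30 and -0.57). Pknox2 fell by 3.09 ± 0.74 and 4.55 ± 0.80 (edgeR adjusted p 0.00908 and 0.00116; 3.74 without tumour VEH replicate 2, 5.18 and 3.92 without tumour HDM replicate 1 and 3), whereas Meis1 was not called (0.16 ± 0.30 and 0.01 ± 0.30, adjusted p 0.701 and 0.979). Of 24 Polycomb subunits, which hold Hox genes silent, 8 were higher and 3 lower under VEH, and 11 and 3 under HDM (medians 0.34 and 0.62), so 11 and 14 of 24 were called beside 38.9% and 51.9% of all genes. The histone methyltransferase Ezh2 rose by 1.94 ± 0.40 and 2.38 ± 0.41 (adjusted p 0.00425 and 0.000937), while its paralogue Ezh1 fell by 0.97 ± 0.13 and 0.70 ± 0.13 (adjusted p 0.000675 and 0.00162).

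Of 13 Trithorax group genes and H3K27 demethylases, which act to keep Hox genes active, 6 were higher and 3 lower under VEH, and 6 and 2 under HDM (medians 0.08 and 0.53), beside 38.9% and 51.9% of all genes called. Men1, encoding menin, rose by 1.14 ± 0.15 and 0.65 ± 0.15 (edgeR adjusted p 0.000567 and 0.00443). Of 18 genes of the retinoic acid pathway, a signal that turns on anterior Hox genes in the embryo, 16 were tested; 2 were higher and 7 lower under VEH, and 4 and 10 under HDM (medians -1.16 and -1.47). Aldh1a2, which makes retinoic acid, fell by 5.79 ± 1.03 and 3.65 ± 0.93 (adjusted p 0.00239 and 0.0081), and by 4.69 under VEH without normal VEH replicate 2 (adjusted p 0.00378). Of 11 ParaHox and Hox-linked homeobox genes, 2 were tested and both (Meox1 and Meox2) were lower under either treatment.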

How the data were processed

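The deposited table holds raw counts per gene, which the authors made with software that the submitters' processing notes list as STAR, Trim Galore, featureCounts and Subread on mm39, with no versions or roles; annotation and strand setting are not given in the sources used here. Reads were 150 bases from each end, per the labels' protocols. Deposited counts were often even (73.1% of 297 Hox values above 0, and 26797 values of 2 against 11683 of 1 over all genes), so halved counts were added as an alternative after the data were seen. Symbols came from GENCODE M39, which holds 78168 of 78298 identifiers. Of 39 Hox genes, 16 have a deposited length equal to the GENCODE exon length; TPM uses the deposited length.

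Genes passing filterByExpr (minimum count 10), 22190 in all, were tested with edgeR 4.0.16 in R 4.3.3: TMM, robust quasi-likelihood F-test, 1 coefficient per group over 12 libraries, two-sided, Benjamini-Hochberg, called below 0.05. SE is the log2 change over the square root of F. Near zero means 3 counts or fewer in every library, and low means failing the filter otherwise. Any Hox gene could be named, with full values for called or abundant ones, as could other genes of the clusters and of the 5 lists; some items, 1 Hox gene among them, are not reported here and not drawn by gene, but enter the counts and sums. Members and lists were chosen with earlier results of these data known. Alternatives were DESeq2 1.42.0 size factors and Wald test, library-size scaling, no or a stricter filter, fits of the compared groups, blocks for replicate number or library prefix, removal of the 4 libraries of conflicting prefix, and leaving out each library. The script was tested on simulated data.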

Additional observations from a re-analysis of the deposited data

How the results depend on the processing

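The rises of Hoxc6, Hoxd8 and Hoxd10 in both tissue comparisons, and the fall of Hoxa5 under VEH, kept their direction and call in each alternative in which the gene could be fitted. Calls lost without 1 library stand beside their values above. With the filter of 10 counts in every library, 4 Hox genes were called under VEH (1 higher) and 5 under HDM (2 higher), fewer genes being tested. With no filter 3 were higher under VEH, Hoxa13 and Hoxd9 being lost. Fitting only the groups compared gave 5 called (3 higher), with Hoxa4, Hoxa13 and Hoxd9 lost. Counts halved gave 8 higher under VEH. For these fits, and for the replicate block below, the share of all genes called is not given here. A change in Hox calls there cannot be told from a change in calls over all genes. The replicate numbers are not shown to pair the samples (correlations of deviations -0.355 to 0.279, and not every library correlates best with its own number). With 3 libraries per group, such correlations cannot exclude a pairing. For libraries joined by prefix these correlations were -0.219 to 0.179, which does not show a pairing either. With the replicate block 6 Hox genes were called under VEH and 12 under HDM, Hoxb3 under VEH was 0.051 and 1 gene of all was called for HDM in tumours. The block for library prefix left 8 Hox genes under HDM (6 higher), with Hoxb4 at 0.315, Hoxb2 at 0.222 and Hoxa3 at 0.002. Leaving out 1 library at a time, Hox genes called under VEH ran from 5 to 11 (4 to 8 higher, 1 to 3 lower) and lower calls under HDM from 1 to 3. Genes of all called ran from 5733 to 9070 under VEH, from 0 to 24 for HDM in tumours and from 0 to 6 for the interaction. Genes of all called for HDM in tumours, 21 as reported, were 8 by library size, 52 with no filter, 53 with the strict filter, 33 with counts halved, and 0 with only the groups compared, with the prefix block or without the 4 libraries of conflicting prefix. The DESeq2 Wald test called 43 in normal lung, 1311 in tumours and 222 for the interaction. Without those 4 libraries 5603 genes were called under VEH. The causes were not tested.

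Each change of sign was in a gene that was not called. Hoxb3 under VEH (log2 change -0.004) was 0.14 by library size, 0.058 with no filter, 0.025 with only the groups compared and 0.001 with counts halved, and Hoxb3 under HDM was -0.005 with the strict filter. Without the 4 libraries Hoxa2 was 0.062 and Hoxb8 -0.148 under VEH, Hoxb6 0.297, Hoxb4 0.385, Hoxc4 0.036, Hoxb2 0.471 and Hoxa3 0.295 under HDM, and for HDM in normal lung Hoxd8 was 0.311 and Hoxa13 0. Leaving out 1 library, the ranges under VEH were -0.406 to 0.13 for Hoxa2, -0.182 to 0.259 for Hoxb3, -0.502 to 0.218 for Hoxb4, -0.07 to 0.629 for Hoxb7, -0.447 to 1.119 for Hoxb8 and -1.733 to 0.002 for Hoxc5. Under HDM they were -0.937 to 0.174 for Hoxa3, -0.963 to 0.23 for Hoxb2, -0.171 to 0.868 for Hoxb3, -0.56 to 0.256 for Hoxb4 and -2.218 to 0.187 for Hoxc4. For HDM in normal lung they were -2.118 to 0.000 for Hoxd8 and -4.864 to 0.000 for Hoxa13. Library-size scaling moved the median log2 change of all genes from -0.11 to 0.03 under VEH and from -0.08 to 0.10 under HDM. At 20608682 to 32765364 counts, levels under 0.091 to 0.138 CPM are not resolved.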
